A study of Homo sapiens with 9 samples.

Results

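The genes described here are 40 genes of DNA damage detection and repair, chosen by name among the 31033 gene names on the array. Of these 40 genes, 39 were on the array with 63 probes, and the name ATRIP, the partner protein of the checkpoint kinase ATR, was absent. Their transcripts were measured in DLD1 cells, an established human colorectal cancer cell line, on 9 single-color Agilent arrays, 1 for each sample. The 3 Control samples received no siRNA, the 3 Lamin A/C Kd samples were given 100 nM siRNA against Lamin A/C for 48 h, and the 3 Lamin B2 Kd samples were given 100 nM siRNA against Lamin B2 for 48 h. Effects of transfection and of the lost lamin therefore cannot be told apart in a comparison with Control. The labels number the samples of a group as sets, and the study's methods call them independent biological replicates.

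A break through both strands of DNA is bound by the RAD50 and NBN complex, which activates the kinase ATM, while ATR and its target CHEK1 respond to exposed single-stranded DNA. The ends are then joined directly or copied from the sister chromatid. In direct end joining the Ku proteins XRCC5 and XRCC6 recruit the kinase PRKDC, and LIG4 with XRCC4 seals the ends. In homologous recombination BRCA1, PALB2 and BRCA2 place the recombinase on resected ends, and RAD54L assists the strand exchange. Fanconi anemia proteins act on crosslinks between the strands, BLM and WRN unwind repair intermediates, and the other members repair mismatches, bulky lesions and breaks of a single strand. Many genes of the recombination and crosslink pathways are transcribed most strongly in cells that are replicating their DNA.

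All values below are log2 signals relative to the median spot of the same array, so 0 is the median and a difference of 1 is a fold change of 2. A gene was represented by its brightest probe among those tested, and all 39 members were above background on all 9 arrays by that probe. The siRNA targets fell as labeled, with log2 fold changes of -3.83 ± 0.22 (SE) for LMNA and -2.32 ± 0.14 for LMNB2 in their own knockdowns, and limma adjusted p-values of 0.000225 and 0.000523. One library stood apart. Lamin B2 Kd replicate 3, the array on the second slide, correlated with the other arrays at Pearson's r of 0.969 to 0.980 across probes, whereas the other 8 arrays correlated with each other at 0.985 to 0.996. The calls, the member medians and the list counts of Lamin B2 Kd are therefore given with and without this array. All 9 markers of colon epithelium on the array, among them CDH1, KRT8, KRT20 and CDX2, were above background on all arrays. KRT20 was dim, with a Control mean of -1.40, against 8.63 for CDH1 and 10.57 for KRT8. VIL1, a protein of the brush border, fell in Lamin B2 Kd by 1.06 ± 0.21 (adjusted p = 0.0340) and by 0.87 ± 0.19 without replicate 3 (adjusted p = 0.0485), and LGALS4, a lectin of the gut epithelium, was lower in Lamin A/C Kd than in Lamin B2 Kd (-0.69 ± 0.17, adjusted p = 0.0283). The part of these markers in the results below was not tested. Of the 9 markers of other cell types, 5 (CD3E, CD79A, CD14, PECAM1 and VWF) were also above background on all arrays, and the others on at least 1 array. The Control means of these 5 ran from -0.97 (PECAM1) to 2.86 (CD79A), all above that of KRT20. Being above background therefore did not by itself separate these lists. None of these 5 passed the test against Control in either knockdown, while VWF was higher in Lamin A/C Kd than in Lamin B2 Kd by 0.50 ± 0.14 (adjusted p = 0.0446).

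In Lamin A/C Kd, 9 of the 39 members fell at an adjusted p below 0.05 and 0 rose. Among all 21868 genes tested in this comparison 8.94% passed, with 5.78% lower and 3.15% higher. The 9 genes were BRCA1, BRCA2, PALB2 and RAD54L of homologous recombination, LIG4, XRCC4 and PRKDC of end joining, FANCG of the Fanconi anemia pathway and the helicase BLM. Their transcripts were left at 44.0 to 68.3% of the Control level. By the brightest probe only LIG4 passed the 2-fold criterion with an unadjusted p below 0.05, which 2.2% of all genes passed and 1.28% passed as lower. Dimmer probes of PARP1 (lower) and RAD50 (higher) also passed it, as given below. The median log2 fold change over the 39 members was -0.25, against -0.04 over all genes, and 30 members were below 0 where 55.5% of all genes were. For 25 members every Lamin A/C Kd array was below every Control array, and for 2 every array was above, which held for 25.2% and 15.6% of all genes.

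The number of calls changed when single arrays were left out. Without Control replicate 1, 2 or 3 the limma test called 0 members at the adjusted threshold, while 15, 15 and 14 members had an unadjusted p below 0.05, against 17.6%, 18.2% and 17.2% of all genes. With all arrays 16 of the 39 members (41%) and 23.2% of all genes had such a p in Lamin A/C Kd. In Lamin B2 Kd this held for 14 members (35.9%) and 24.4% of all genes. Without replicate 1, 2 or 3 of Lamin A/C Kd the limma test of Lamin A/C Kd against Control called 1, 1 and 4 members. Without replicate 1, 2 or 3 of Lamin B2 Kd it called 10, 9 and 15. Without replicates 1, 2 and 3 of Lamin A/C Kd, 41%, 35.9% and 43.6% of the members had an unadjusted p below 0.05. The shares of all genes were 17.9%, 18.5% and 20.1%. Without replicates 1, 2 and 3 of Lamin B2 Kd these shares were 43.6%, 41% and 59%, against 23.8%, 23.4% and 34% of all genes. The 9 fold changes stayed below 0 in each of these fits, although leaving out a Lamin B2 Kd array could not change them. In bulk RNA a lower signal from every cell and a smaller share of cells that express the gene cannot be told apart.

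**Figure D1:**
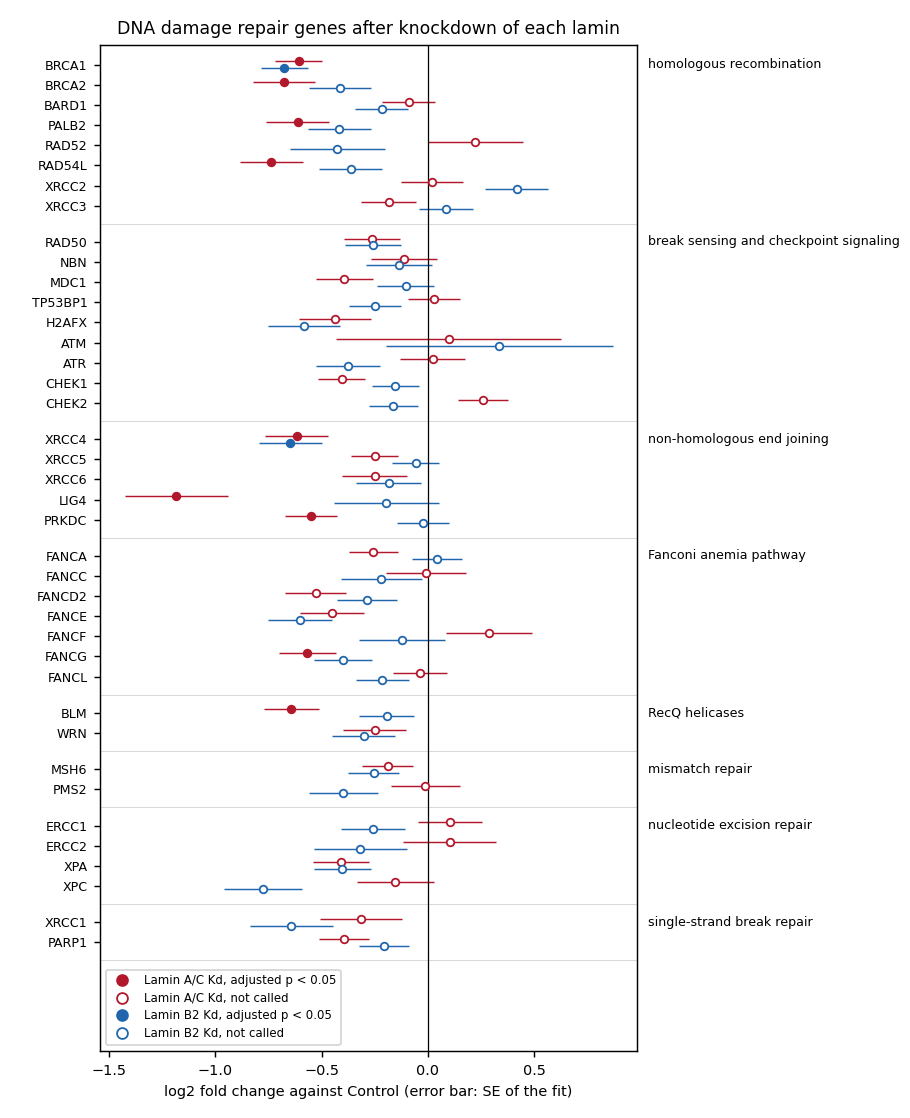
Log2 fold change against Control of the 39 measured repair genes, grouped by role, for Lamin A/C Kd (red) and Lamin B2 Kd (blue). Horizontal bars are standard errors of the fit and filled points passed an adjusted p of 0.05. The 9 filled red points and the 2 filled blue points all lie below 0.

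Homologous recombination contributed 4 of its 8 measured members to the decrease in Lamin A/C Kd, where 5.78% of all genes were called lower. BRCA1, the scaffold that directs broken ends into recombination, had log2 signals of 5.21, 5.21 and 5.22 on the Control arrays, 4.45, 4.66 and 4.72 in Lamin A/C Kd and 4.59, 4.50 and 4.52 in Lamin B2 Kd. Neither knockdown overlapped with Control. The log2 fold change of BRCA1 against Control was -0.61 ± 0.11 (SE) after Lamin A/C Kd (adjusted p = 0.0119). After Lamin B2 Kd it was -0.68 ± 0.11 (adjusted p = 0.0182). By the brightest probe of each gene, BRCA1 was the member with the lowest adjusted p in each of these comparisons. The difference between the knockdowns was 0.07 ± 0.11 (adjusted p = 0.720).

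BRCA2, which carries the recombinase to the resected ends, gave 0.79, 0.82 and 0.86 in Control, 0.15, 0.07 and 0.22 in Lamin A/C Kd and 0.72, 0.17 and 0.33 in Lamin B2 Kd. It fell by 0.68 ± 0.15 after Lamin A/C Kd (adjusted p = 0.0231). In Lamin B2 Kd it was at -0.41 ± 0.15 and did not pass (adjusted p = 0.140), with 1 array close to Control. PALB2, which bridges BRCA1 and BRCA2, gave 1.85, 2.003 and 2.15 in Control, 1.30, 1.21 and 1.65 in Lamin A/C Kd and 1.58, 1.70 and 1.47 in Lamin B2 Kd. It fell by 0.61 ± 0.15 after Lamin A/C Kd (adjusted p = 0.0352), and all 6 knockdown arrays were below the Control arrays. RAD54L, a motor protein of strand exchange, gave 7.07, 6.93 and 7.11 in Control, 6.18, 6.33 and 6.38 in Lamin A/C Kd and 6.78, 6.86 and 6.37 in Lamin B2 Kd. It fell by 0.74 ± 0.15 to 60.0% of the Control level in Lamin A/C Kd (adjusted p = 0.0170). The other members of this pathway did not pass in either knockdown. BARD1, the obligate partner of BRCA1, was at -0.09 ± 0.13 and -0.22 ± 0.13 in the Lamin A/C and Lamin B2 knockdowns, and RAD52, XRCC2 and XRCC3 were between -0.18 and 0.22 in Lamin A/C Kd.

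In end joining 3 of the 5 measured members fell in Lamin A/C Kd, against 5.78% of all genes. LIG4, the ligase that closes the ends, gave -0.07, 0.08 and -0.07 in Control, -0.60, -1.52 and -1.48 in Lamin A/C Kd and -0.26, 0.07 and -0.45 in Lamin B2 Kd. Every Lamin A/C Kd array was below every array of the other groups, but replicate 1 was closer to them than replicates 2 and 3. The LIG4 probe was dim in Lamin A/C Kd, where the lowest signals above background on replicates 1, 2 and 3 were -2.03, -1.95 and -1.99. LIG4 fell by 1.18 ± 0.24 in Lamin A/C Kd to 44.0% of the Control level (adjusted p = 0.0190) and was at -0.20 ± 0.24 in Lamin B2 Kd (adjusted p = 0.627). After normexp background correction with an offset of 50 the LIG4 difference from Control in Lamin A/C Kd was -0.45 ± 0.11 (adjusted p = 0.0183). LIG4 had the most negative value of the members in this comparison except under that correction, where RAD54L at -0.85 and XRCC4 at -0.70 were lower and no member passed the 2-fold criterion. Without Lamin A/C Kd replicate 2 or 3 the LIG4 difference was -1.02 or -1.04 and missed the threshold (adjusted p = 0.0762 and 0.0701). The LIG4 value came from the probe below, which is shown because the 2-fold call rests on it alone. The other 2 LIG4 probes on the array were too dim to be tested, being above background on at most 1 array of any group. The probe has 60 bases, printed 5′ to 3′ as the files give it, and 1 of its 3 forward reading frames holds no stop codon.

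LIG4, probe on the array: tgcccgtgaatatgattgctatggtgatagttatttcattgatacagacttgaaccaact

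The gene lies at chr13:108207442-108218349 of GRCh38.p14. XRCC4, the scaffold that binds LIG4, gave 4.89, 4.88 and 4.94 in Control, 4.33, 4.26 and 4.29 in Lamin A/C Kd and 4.43, 4.43 and 3.92 in Lamin B2 Kd. Both knockdowns were below Control on every array, and the lowest value was that of the library that stood apart. XRCC4 fell by 0.62 ± 0.15 after Lamin A/C Kd (adjusted p = 0.0331), and the difference after Lamin B2 Kd was -0.65 ± 0.15 (adjusted p = 0.0462). Without Lamin B2 Kd replicate 3 the latter was -0.48 ± 0.08 (adjusted p = 0.0240). PRKDC, the catalytic subunit of the DNA-dependent protein kinase, gave 4.54, 4.42 and 4.75 in Control, 4.06, 3.91 and 4.09 in Lamin A/C Kd and 4.53, 4.60 and 4.51 in Lamin B2 Kd. It fell by 0.55 ± 0.12 after Lamin A/C Kd (adjusted p = 0.0252) and was at -0.02 ± 0.12 in Lamin B2 Kd (adjusted p = 0.918), where its arrays lay within the range of Control. A second, dimmer PRKDC probe was at -0.76 ± 0.22 in Lamin A/C Kd and missed the threshold (adjusted p = 0.0684). The Ku genes XRCC5 and XRCC6 were both at -0.25 in Lamin A/C Kd and did not pass, although each Lamin A/C Kd array was below each Control array.

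**Figure D2:**
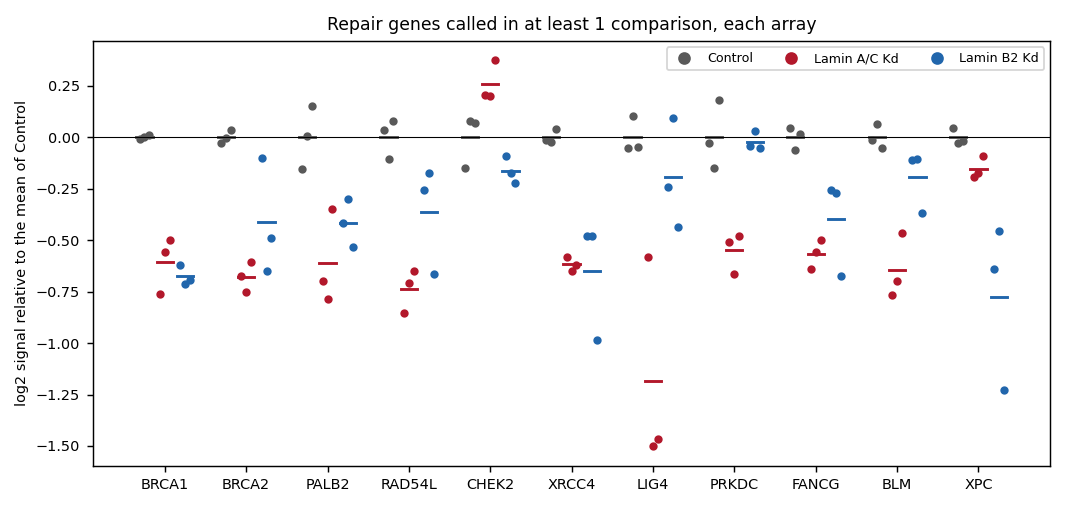
Log2 signal of each array relative to the mean of Control for the 11 repair genes called in at least 1 of the 3 comparisons, with points for arrays and short bars for group means. LIG4 has the lowest mean of Lamin A/C Kd, at -1.18 against Control, and the Lamin A/C Kd points of CHEK2 lie above the Control points.

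FANCG, a subunit of the Fanconi anemia core complex, gave 6.95, 6.85 and 6.93 in Control, 6.27, 6.35 and 6.41 in Lamin A/C Kd and 6.65, 6.64 and 6.24 in Lamin B2 Kd. It fell by 0.57 ± 0.14 after Lamin A/C Kd (adjusted p = 0.0333) and was at -0.40 ± 0.14 in Lamin B2 Kd (adjusted p = 0.127). Of the other 6 Fanconi anemia genes none passed by the brightest probe. FANCD2, the protein that the core complex modifies, came closest at -0.53 ± 0.14 in Lamin A/C Kd (adjusted p = 0.0507), followed by FANCE at -0.45 ± 0.15, whereas FANCC, FANCL and FANCF were between -0.04 and 0.29. BLM, the helicase lost in Bloom syndrome, gave 5.9999, 6.08 and 5.96 in Control, 5.25, 5.32 and 5.55 in Lamin A/C Kd and 5.90, 5.91 and 5.64 in Lamin B2 Kd. BLM fell by 0.64 ± 0.13 after Lamin A/C Kd (adjusted p = 0.0170), and its relative WRN was at -0.25 ± 0.15 (adjusted p = 0.353).

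In break sensing and checkpoint signaling 0 of the 9 measured members passed the limma test against Control in either knockdown. Unadjusted p-values were below 0.05 for 3 members after Lamin A/C Kd and 2 after Lamin B2 Kd. Among all genes 23.2% and 24.4% had such a p. The checkpoint kinase CHEK1 was at -0.41 ± 0.11 after Lamin A/C Kd (adjusted p = 0.0519), and the adaptor MDC1 was at -0.39 ± 0.13 (adjusted p = 0.105). H2AFX, the histone variant phosphorylated at breaks, was at -0.44 ± 0.17 and -0.58 ± 0.17 in the Lamin A/C and Lamin B2 knockdowns, with 2 Control arrays because its spot on Control replicate 1 was an outlier. The kinases ATM and ATR were at 0.10 ± 0.53 and 0.02 ± 0.15 in Lamin A/C Kd, and the probe of ATM was dim, with log2 signals from -1.73 to 0.40 over the 9 arrays. Mismatch repair (MSH6 and PMS2) and nucleotide excision repair (ERCC1, ERCC2, XPA and XPC) also held 0 calls against Control at the adjusted threshold. In Lamin A/C Kd their values were between -0.41 (XPA, which verifies the lesion) and 0.10 (ERCC1, part of the excision nuclease), and 1 member had an unadjusted p below 0.05. In Lamin B2 Kd all 6 were below 0, and 3 had an unadjusted p below 0.05, where 66.7% and 24.4% of all genes did.

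Where a gene had several probes, these did not always give the same call. The clearest case was PARP1, the enzyme that senses nicks in DNA and marks them with poly(ADP-ribose). Its brightest probe gave 8.46, 8.49 and 8.47 in Control, 8.05, 7.99 and 8.19 in Lamin A/C Kd and 8.40, 8.30 and 8.10 in Lamin B2 Kd, a difference of -0.40 ± 0.12 in Lamin A/C Kd that did not pass (adjusted p = 0.0692). The second probe gave 5.40, 5.46 and 5.49 in Control, 4.37, 4.37 and 4.60 in Lamin A/C Kd and 5.24, 5.12 and 4.98 in Lamin B2 Kd. It fell by 1.005 ± 0.12 after Lamin A/C Kd (adjusted p = 0.00250) and met the 2-fold criterion (limma unadjusted p = 1.32e-05). The last probe fell by 0.99 ± 0.12 there (adjusted p = 0.00301). After Lamin B2 Kd only the last probe passed, at -0.55 ± 0.12 (adjusted p = 0.0450). All 3 PARP1 probes carry the same transcript accession in the files, and no Lamin A/C Kd array overlapped with Control on any of them. Which of the probes follows the PARP1 transcript more closely was not tested.

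FANCA, another subunit of the core complex, had a brightest probe at -0.26 ± 0.12 in Lamin A/C Kd (adjusted p = 0.220), for the accession NM_000135. Its other 2 probes, which share 36 bases and are annotated to NM_001018112, fell by 0.74 ± 0.16 and 0.80 ± 0.21 (adjusted p = 0.0241 and 0.0480). FANCD2 had a probe that fell by 0.73 ± 0.18 (adjusted p = 0.0366) and a further probe at 0.28 ± 0.19 beside its brightest probe. Its probes therefore differed in sign, in Lamin B2 Kd as well. In RAD50 the signs also differed in Lamin A/C Kd, with the bright probe at -0.26 ± 0.13 and a dim probe at 1.09 ± 0.37. Neither passed the adjusted threshold. The dim RAD50 probe met the 2-fold criterion as higher (limma unadjusted p = 0.0166), and its Lamin A/C Kd arrays did not overlap with Control. The probes of 6 further members differed in sign in Lamin A/C Kd, and none of them passed against Control. Given with the brightest probe first, the values were 0.10 and -0.43 for ATM, 0.10 and -0.16 for ERCC2, 0.29 and -0.19 for FANCF, -0.11 and 0.01 for NBN, 0.02 and -0.16 for XRCC2, and -0.01, 0.04, 0.17 and -0.14 for PMS2. XRCC2, ATM, FANCA and RAD50 also had probes of both signs in Lamin B2 Kd, where none passed the adjusted threshold. The RAD50 probes were there at -0.26 and 1.22, and the dim probe again met the 2-fold criterion as higher (limma unadjusted p = 0.00977). When the probes of each gene were averaged, 12 members fell in Lamin A/C Kd, the 9 named above with CHEK1, FANCA and PARP1. In that limma fit 48.7% of the members had an unadjusted p below 0.05, against 23.5% of all genes.

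**Figure D3:**
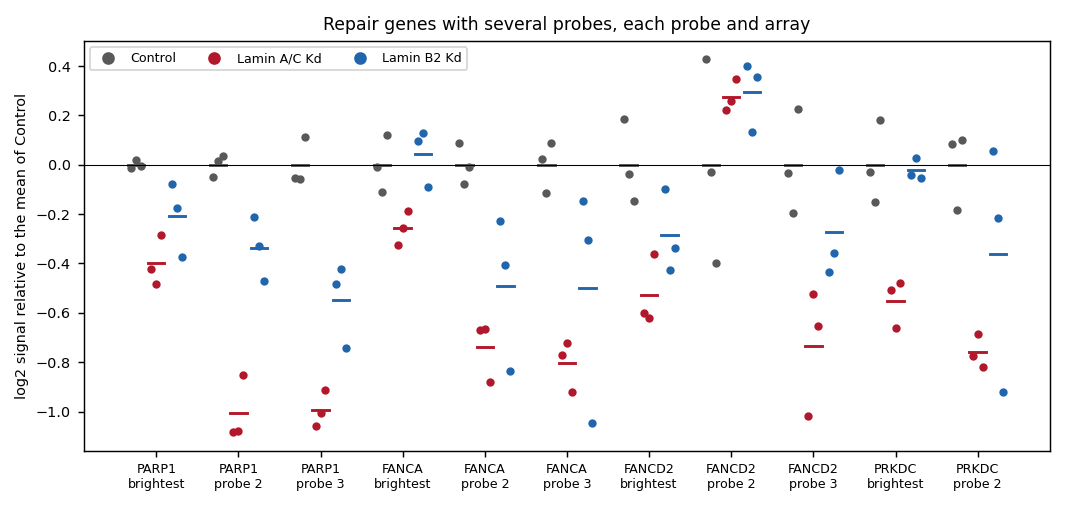
Log2 signal of each array relative to the mean of Control for every probe of PARP1, FANCA, FANCD2 and PRKDC, with points for arrays and short bars for group means. The PARP1 probes marked 2 and 3 are lower in Lamin A/C Kd than the brightest PARP1 probe, and the second FANCD2 probe is above 0 in both knockdowns.

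In Lamin B2 Kd, 2 of the 39 members fell and 0 rose at the adjusted threshold, and both, BRCA1 and XRCC4, had fallen in Lamin A/C Kd. Among all 22123 genes tested 4.38% passed, with 3.92% lower and 0.466% higher, so the share of the members that fell, 5.13%, was near that of all genes. By the brightest probe no member passed the 2-fold criterion, which 2.03% of all genes passed and 1.21% passed as lower. The dim RAD50 probe named above passed it as higher. The median over the members was -0.26 and that over all genes -0.14, and 35 members were below 0 where 66.7% of all genes were. Every Lamin B2 Kd array was below every Control array for 19 members and above for 1 member, XRCC2, against 27.3% and 5.65% of all genes. This shift depended on the scaling. With the 75th percentile in place of the median of each array, the median over all genes in Lamin B2 Kd moved to 0.06 and that over the members to -0.06. Relative to the median of all genes the members were at -0.12 under either scaling and at -0.05 after quantile normalization, and in Lamin A/C Kd at -0.21 and -0.17. Both scalings subtract 1 value per array, so this relative value could not differ between them. Both knockdowns were compared with the same 3 Control arrays.

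XPC, the lesion sensor of nucleotide excision repair, had the most negative value of the members in Lamin B2 Kd with all arrays, but not without replicate 3, where BRCA1 at -0.67 was below XPC at -0.55. XPC gave 7.03, 6.95 and 6.96 in Control, 6.79, 6.81 and 6.89 in Lamin A/C Kd and 6.34, 6.53 and 5.75 in Lamin B2 Kd, where all arrays were below those of both other groups. The difference of -0.77 ± 0.18 from Control missed the threshold (adjusted p = 0.0507). A second probe that shares 59 bases with it fell by 0.68 ± 0.15 (adjusted p = 0.0446), and the remaining XPC probe was at -0.63 ± 0.18 (adjusted p = 0.0841). Without Lamin B2 Kd replicate 3, which had the lowest XPC value, XPC was among 4 members called by the brightest probe, with BRCA1, XRCC4 and FANCE, and the median over the members moved to -0.14 against -0.06 for all genes. In that fit 10.3% of the members were called lower, against 4% of all genes. Without Lamin B2 Kd replicate 1 the 2 members called were BRCA1 and BRCA2, so that XRCC4 was lost. There 56.4% of the members had an unadjusted p below 0.05 by limma, against 30.2% of all genes. Without replicate 2, 5 members were called, and 30.8% of the members had such a p, against 30.5% of all genes. Without any 1 of the Control arrays 0 were called by limma, with 8 to 11 unadjusted p-values below 0.05 (20.5 to 28.2% of the members, against 15.7 to 18.1% of all genes). Without any 1 of the Lamin A/C Kd arrays, which enter through the shared estimate of the spread, only BRCA1 was called. In these fits 33.3 to 35.9% of the members had such a p, against 21.9 to 22.4% of all genes.

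The knockdowns were also compared with each other, which does not involve the Control arrays other than in the estimate of the spread. In this comparison 5 of the 39 members passed, where 15.7% of all 21852 genes tested did. LIG4, PRKDC and BLM were lower in Lamin A/C Kd than in Lamin B2 Kd by log2 differences of -0.99 ± 0.24, -0.53 ± 0.12 and -0.45 ± 0.13 (adjusted p = 0.0258, 0.0195 and 0.0452). XPC and CHEK2 were higher in Lamin A/C Kd by 0.62 ± 0.18 and 0.42 ± 0.12 (adjusted p = 0.0492 and 0.0393). Among all genes 4.53% were lower and 11.2% higher in Lamin A/C Kd. Of the members 19 were below 0, where 44.5% of all genes were, and 0 passed the 2-fold criterion, which 4.21% of all genes passed and 1.41% passed as lower. The arrays of the knockdowns did not overlap for 9 members lower and 6 higher in Lamin A/C Kd, against 10.4% and 21.9% of all genes. CHEK2, the kinase downstream of ATM, gave 3.603, 3.83 and 3.82 in Control, 3.95, 3.95 and 4.13 in Lamin A/C Kd and 3.66, 3.58 and 3.53 in Lamin B2 Kd. Its Lamin A/C Kd arrays were above all others, but the difference from Control of 0.26 ± 0.12 did not pass (adjusted p = 0.213). With the 75th percentile scaling or quantile normalization CHEK2 was called higher in Lamin A/C Kd against Control. The difference between the knockdowns was then 0.30 ± 0.09 for CHEK2 with the 75th percentile and missed the threshold (adjusted p = 0.0542), and in the authors' table that of XPC was 0.48 ± 0.16 (adjusted p = 0.0686). The difference of the PRKDC values was in the same direction but did not pass by its second probe, at -0.40 ± 0.22 (adjusted p = 0.271). In PMS2 1 of 4 probes was higher in Lamin A/C Kd than in Lamin B2 Kd (0.50 ± 0.13, adjusted p = 0.0273), and the brightest was not called. PARP1 was lower in Lamin A/C Kd by its probes other than the brightest (-0.67 ± 0.12 and -0.44 ± 0.12, adjusted p = 0.00692 and 0.0411) and at -0.19 ± 0.12 by the brightest (adjusted p = 0.324). The further XPC probes, at 0.40 and 0.47, did not pass (adjusted p = 0.115 and 0.111). The count of 5 became 8 without Lamin B2 Kd replicate 3 and 1 without its replicate 2. Without its replicate 1 it was also 5, of which 1, PRKDC, is among the 5 above. The count was 2 without any 1 of the Control arrays, and 1, 0 and 2 without replicates 1, 2 and 3 of Lamin A/C Kd. The count of 0 by limma had 7 unadjusted p-values below 0.05 (17.9% of the members, against 24% of all genes). With all arrays 35.9% of the members and 29.4% of all genes had such a p. Without Lamin B2 Kd replicates 1, 2 and 3 these were 35.9%, 28.2% and 33.3% of the members, against 32.4%, 31.8% and 32.5% of all genes. Without a Control array they were 25.6%, against 26.8 to 27.3%. Without Lamin A/C Kd replicate 1 or 3 they were 23.1%, against 24.8% or 24.3%.

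Repair genes outside the 39 members were counted in the same way. Of 84 further repair genes tested in Lamin A/C Kd, 10 fell (11.9%) and 2 rose, with a median of -0.20. Among all genes 5.78% fell and 3.15% rose. The lowest adjusted p-values were those of BRCC3, a deubiquitinase of the BRCA1-A complex, at -1.93 ± 0.17 (adjusted p = 0.000675), TIMELESS, which protects replication forks, at -1.10 ± 0.12 (adjusted p = 0.00197), and OGG1, the glycosylase for oxidized guanine, at -0.89 ± 0.12 (adjusted p = 0.00395). In Lamin B2 Kd 4 of 85 fell and 0 rose, a share near the 3.92% of all genes. These were TDG, RNF8, TIMELESS and NTHL1, and without replicate 3 none of them was called, and 2 others, LIG1 and MUTYH, were.

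Genes of DNA replication and S phase were counted as a further list. Of 35 such genes tested, 15 fell in Lamin A/C Kd (42.9%) and 0 rose, with a median log2 fold change of -0.48. Among all genes 5.78% fell and 3.15% rose. MCM6, a subunit of the replicative helicase, fell by 1.22 ± 0.13 (adjusted p = 0.00139), GINS2, which joins this helicase, by 0.68 ± 0.11 (adjusted p = 0.00819) and POLA1, the catalytic subunit of DNA polymerase alpha, by 0.65 ± 0.11 (adjusted p = 0.00889). In Lamin B2 Kd 2 of the 35 fell (5.71%, against 3.92% of all genes), the histone chaperone subunits CHAF1A and CHAF1B, with a median of -0.29. Without replicate 3 these and UHRF1 were called (8.57%, against 4% of all genes). On the Lamin A/C Kd arrays the median of the S phase genes relative to Control was -0.55, -0.44 and -0.43, and that of the members was -0.33, -0.27 and -0.16. On the Lamin B2 Kd arrays these medians were -0.18, -0.25 and -0.50 for S phase and -0.10, -0.21 and -0.49 for the members, and replicate 3 was the lowest for both and for all genes (-0.31). The part of the S phase genes in the lower repair transcripts was not tested.

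**Figure D4:**
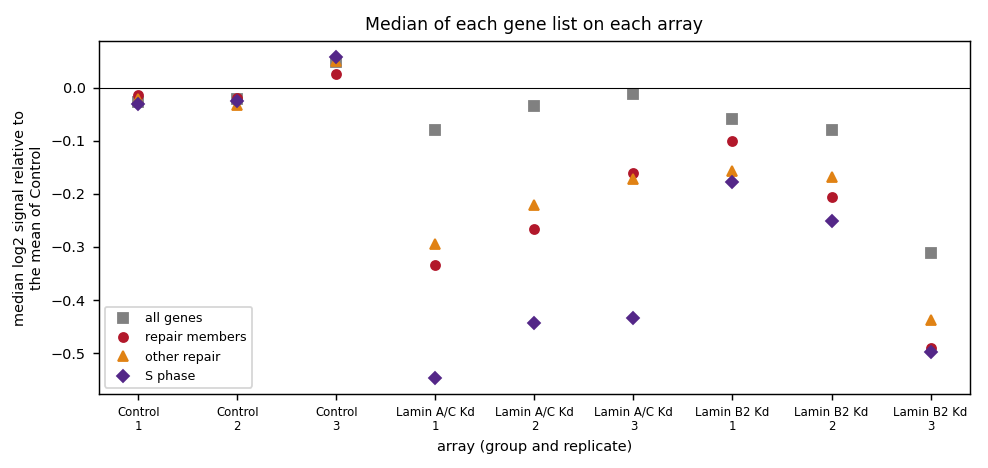
Median log2 signal relative to the mean of Control, on each of the 9 arrays, for all genes, the 39 repair members, the other repair genes and the S phase genes. In Lamin A/C Kd the members lie below all genes and the S phase genes lower still, and on Lamin B2 Kd replicate 3 the median of all genes is itself at -0.31.

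**Figure D5:**
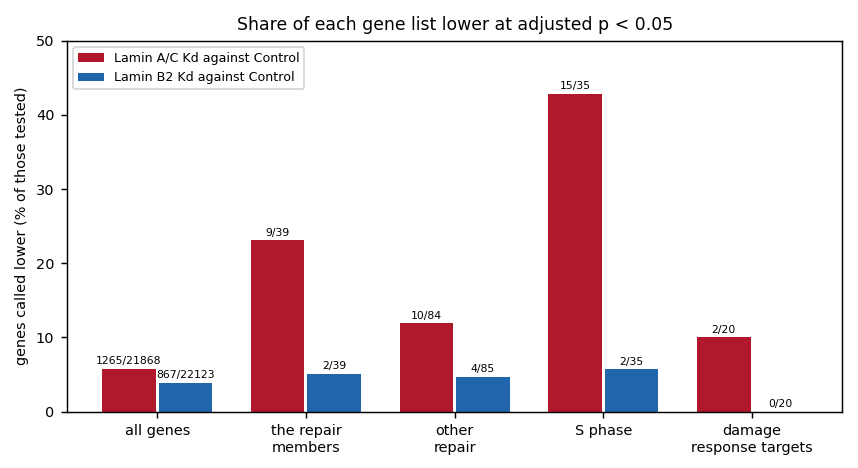
Percent of tested genes that were lower at an adjusted p of 0.05, for all genes and for each list, for the Lamin A/C (red) and Lamin B2 (blue) knockdowns, with the counts above the bars. The share in Lamin A/C Kd was 5.78% of all genes, 23.1% of the members and 42.9% of the S phase genes.

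The promoters of the members were searched for letters of elements known from cell cycle genes, in the 250 bases before each start site given by RefSeq for GRCh38.p14 and on both strands. Promoter sequences were found for 36 of the 40 members. The CCAAT letters occurred in 21 of these 36 (58.3%) and in 37% of all 27305 genes with a sequence. Among the members lower in Lamin A/C Kd 5 of the 8 with a sequence held CCAAT, namely BLM, BRCA1, LIG4, PALB2 and RAD54L, and among the remaining members 16 of 28. The latter include ATRIP, which was not on the array and could not be called. The letters TTTNNCGC, part of the element known for E2F, occurred in 6 of 36 members, all of them outside the 8, and in 7.15% of all genes. Only this string was searched, so other forms of the element were not counted. Its absence from the 8 therefore does not mean that their promoters lack an E2F element. The letters TTTGAA, known from cell cycle homology regions, occurred in 6 members, also outside the 8, and in 16.1% of all genes, and TTCGAA in 0 members and 1.5% of all genes. Promoters of 3 members that fell are shown as examples of CCAAT before the start of genes of homologous recombination and of the helicases. That of PALB2, also of homologous recombination, has a match 26 bases before its start and is not shown. In the windows CCAAT or its complement ATTGG is in capitals, 5′ to 3′ along the gene, ending at the base before the start site.

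BLM, chr15:90717096-90717345, plus strand: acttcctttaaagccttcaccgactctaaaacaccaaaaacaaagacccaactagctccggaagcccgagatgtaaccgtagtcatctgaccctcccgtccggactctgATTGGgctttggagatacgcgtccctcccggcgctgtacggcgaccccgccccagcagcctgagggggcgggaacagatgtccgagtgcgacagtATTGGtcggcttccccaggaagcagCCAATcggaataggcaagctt
BRCA1, chr17:43125365-43125614, minus strand: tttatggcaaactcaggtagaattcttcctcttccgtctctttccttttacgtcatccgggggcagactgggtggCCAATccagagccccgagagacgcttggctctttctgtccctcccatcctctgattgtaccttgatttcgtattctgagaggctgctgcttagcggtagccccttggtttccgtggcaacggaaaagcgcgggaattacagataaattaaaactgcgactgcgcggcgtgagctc
RAD54L, chr1:46247438-46247687, plus strand: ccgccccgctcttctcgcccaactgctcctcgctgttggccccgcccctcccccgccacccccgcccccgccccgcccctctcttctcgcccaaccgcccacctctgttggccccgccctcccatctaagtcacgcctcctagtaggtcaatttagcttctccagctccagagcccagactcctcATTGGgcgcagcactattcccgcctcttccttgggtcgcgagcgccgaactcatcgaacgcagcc

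In BLM the matches began 141, 46 and 21 bases before the start, in BRCA1 175 bases and in RAD54L 65 bases before it. A further RAD54L window, before another start site and not shown, had matches 140 and 77 bases before that site. The matches describe letters of these windows and not bound factors. The BRCA1 window also overlaps the gene NBR2 and the BLM window the antisense gene CRTC3-AS1 in the reference table.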

How the data were processed

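RNA of 9 DLD1 samples was measured on single-color arrays. For every array the authors deposited scanner output. Its processed intensity is background-subtracted and detrended by the software (Feature Extraction 10.5, per the labels), and flags of 0 or 1, another measure, mark each spot. A table of log2 signals, which the authors deposited after a 50th percentile shift, served as an alternative. Its Lamin B2 Kd set numbers matched other scanner files by value, so these columns were used as a group.

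Here the log2 intensity minus the median of non-control spots was taken per array, outlier spots were dropped, and spots of the same probe were averaged. Testing required a probe to exceed background on all 3 arrays in 1 or both of the groups compared. No spot was saturated, and 65.6 to 74.1% of spots exceeded background. The number of arrays limits the precision.

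Groups were compared by limma 3.58.1 under R 4.3.3, in 1 model of all 9 arrays, with Benjamini-Hochberg adjustment over all probes tested. The 2-fold criterion (fold of at least 2, unadjusted p below 0.05) follows the study's methods. A gene took the value of its brightest tested probe. Values on every array are given for members with an adjusted p below 0.05 in any of the 3 comparisons, up to 12, or past the 2-fold criterion. Members whose probes differ in call or sign are named, as are up to 3 genes of each other list with the lowest adjusted p. NTHL1, LIG1, MUTYH, UHRF1, GDF15, VIL1, LGALS4 and VWF were named after their values were seen. The count of the other lists without Lamin B2 Kd replicate 3 was also added after seeing the data. The members and lists were chosen with earlier results of these data known. The steps were tested on simulated data. Replicate numbers did not pair the arrays. Alternatives were 75th percentile scaling, quantile normalization, normexp (offset 50), the authors' table, detection filters, the groups in the fit, slide and replicate blocks, probe averages and leaving out each array.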

Additional observations from a re-analysis of the deposited data

How the results depend on the processing

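The 16 calls of single members named above (9 and 2 in the knockdowns against Control and 5 between the knockdowns) kept their direction in all 304 values under the 19 alternatives, and stayed past the threshold in 182 of them. Many of these alternatives could not change a direction. The detection filters, the replicate block and the fit with only the 2 groups compared left the fold changes as they were. So did leaving out an array of the group not compared. The 16 calls were themselves chosen by their adjusted p in these data. The counts of members called moved more. Against 9 in Lamin A/C Kd, 14 members were called with 75th percentile scaling, 14 with quantile normalization, 17 with normexp, 3 with no detection filter, 14 with only the 2 groups compared in the fit and 15 with the slide as a block. The share of all genes called moved with these settings, from 8.94% to 15.2%, 14.3%, 16.2%, 2.92%, 20.1% and 20.9%. The second slide held only Lamin B2 Kd replicate 3. The slide block therefore called the same members as the fit without that array, in all 3 comparisons, and is not a separate check. Against 2 in Lamin B2 Kd, 7 were called with normexp, 4 with detection on all 9 arrays and 4 with the slide as the block (10.4%, 5.92% and 4.64% of all genes, against 4.38%). Limma called 0 with no detection filter and 0 with only the 2 groups compared, with 14 and 12 unadjusted p-values below 0.05, where 0.661% and 0.0452% of all genes were called. Against 5 between the knockdowns, 12 were called with 75th percentile scaling, 12 with quantile normalization, 8 with normexp, 1 with no detection filter and 8 with a block for the slide (22.3%, 22%, 17.4%, 6.91% and 19.3% of all genes, against 15.7%). With only the 2 groups compared limma called 0, with 7 unadjusted p-values below 0.05, where 7.89% of all genes were called. With no detection filter more probes enter the adjustment. The cause of the other moves was not tested. Leaving out 1 array at a time gave 0 to 15, 0 to 5 and 0 to 8 calls in the 3 comparisons, with fewer arrays in each fit. With quantile normalization the median over the members moved to -0.14 and -0.050 in the Lamin A/C and Lamin B2 knockdowns. Over all 19 alternatives these medians ranged from -0.34 to -0.14 and from -0.34 to -0.050. LMNA and LMNB2 stayed past the threshold throughout.

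The labels give the groups the same replicate numbers, but arrays with the same number did not deviate together, with correlations of their deviations between -0.086 and 0.15 across 30489 probes, and an array correlated best with its own number in 5 of 18 pairings. With the replicate block the counts were 2 (BRCA1 and LIG4) in Lamin A/C Kd, 0 in Lamin B2 Kd, where 12 members had an unadjusted p below 0.05 by limma, and 2 (LIG4 and PRKDC) between the knockdowns. In these comparisons 38.5%, 30.8% and 20.5% of the members had such a p, against 20.4%, 21.4% and 27% of all genes.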

Other observations

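Transcriptional targets of the damage response gave calls in both directions after Lamin A/C Kd. Of 20 such genes tested, 3 rose and 2 fell in Lamin A/C Kd, where 3.15% of all genes rose and 5.78% fell. By limma 0 passed in Lamin B2 Kd. There 4 had an unadjusted p below 0.05, as did 24.4% of all genes. Without Lamin B2 Kd replicate 3, a setting chosen after seeing the data, XPC was called lower and GDF15 higher. TNFRSF10B, a death receptor, rose in Lamin A/C Kd by a log2 difference of 0.78 ± 0.11 (limma adjusted p = 0.00558), BTG2, an antiproliferative factor, by 0.75 ± 0.14 (adjusted p = 0.0127) and SESN2, a stress-inducible inhibitor of growth signaling, by 0.74 ± 0.14 (adjusted p = 0.0133). The 2 that fell were GADD45B and DDB2, and DDB2 is also among the further repair genes above, as XPC is both a member and a target. The median over the 20 genes was 0.02 in the Lamin A/C knockdown, whereas in Lamin B2 Kd it was -0.08.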
